A study of Mus musculus with 43 samples.

Results

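A set of 10 transcription factor genes that specify and maintain the endothelial lineage, Erg, Fli1, Ets1, Foxf2, Foxq1, Foxc1, Sox7, Sox17, Sox18 and Tal1, were followed through the RNA sequencing of sorted mouse brain endothelial cells (EC). They were taken from the count table by gene symbol, and all 10 were found among its 54532 genes. The table held 43 libraries of EC sorted as CD31+, CD45- and CD11b- cells from mice aged 2 months, of 7 inbred strains. The wild-derived strains were CAST/EiJ with 6 libraries and WSB/EiJ with 6, and the long-inbred ones were 129S1/SvImJ with 9, C57BL/6J with 6, NOD/ShiLtJ with 6, DBA/2J with 5 and A/J with 5. The cells came from the hippocampus in 22 libraries and from the cortex in 21, and from female mice in 16 and male mice in 27. Each sample title also ended in high (29 libraries) or low (14 libraries), a tag that the labels and the study's methods do not explain. Of the low libraries 13 were male and 1 was female, so that the tag was compared in male mice alone, with 14 high and 13 low libraries. Of the 9 libraries of 129S1/SvImJ 3 were male, and every other strain gave 4 male libraries. Neither the mouse behind each library nor any pooling of mice is given in the labels, and all p-values therefore measure the spread between libraries, which may in part be technical.

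Members of 4 transcription factor families were in the set. Erg, Fli1 and Ets1 are ETS factors, which bind a GGAA core and are found at many endothelial enhancers. Erg and Fli1 are close relatives that keep mature EC in their identity, and Ets1 is known from angiogenesis. Foxf2, Foxq1 and Foxc1 are forkhead factors: Foxf2 is needed in brain vessels for an intact barrier, Foxq1 is enriched in brain over peripheral endothelium, and Foxc1 acts in vascular and meningeal development. Sox7, Sox17 and Sox18 form the SoxF group, which acts in arterial and lymphatic specification, Sox17 being known for arterial identity and Sox18 for the onset of lymphatic fate. Tal1 is a basic helix-loop-helix factor that works with Gata2 and Lmo2 in blood and endothelial progenitors.

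In the mm10 annotation the genes lay on 7 chromosomes. Ets1 (ENSMUSG00000032035, chr9:32636221-32757820, plus strand) was the neighbour of Fli1 (ENSMUSG00000016087, chr9:32422204-32542861, minus strand). The forkhead genes formed a cluster, with Foxq1 (ENSMUSG00000038415) at chr13:31556134-31560976, Foxf2 (ENSMUSG00000038402) at chr13:31625816-31631403 and Foxc1 (ENSMUSG00000050295) at chr13:31806633-31812476, all on the plus strand. Erg (ENSMUSG00000040732) was at chr16:95359169-95586593 and Sox18 (ENSMUSG00000046470) at chr2:181669836-181671640, both on the minus strand. Sox17 (ENSMUSG00000025902) was at chr1:4490931-4497354 on the minus strand, Sox7 (ENSMUSG00000063060) at chr14:63943673-63950732 and Tal1 (ENSMUSG00000028717) at chr4:115056426-115071755, both on the plus strand. All 10 are protein-coding. Foxq1 shares 3200 of its 4843 exonic bases with A530084C06Rik on the opposite strand, which had 10681 counts over all libraries against 114324 for Foxq1, and Sox17 shares 804 bases with Gm37587 on the opposite strand, which had 1345 counts against 113559. Whether reads were counted by strand is not given in the sources used here, so that reads over the shared bases may be left uncounted or assigned to the wrong gene. The levels of Foxq1 and Sox17 may then be too low.

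RefSeq promoter windows on GRCm38.p6, 250 bases before and 50 after a transcription start, were matched for 4 of the 10 genes, Erg, Foxf2, Foxc1 and Tal1. The windows of Erg, Foxc1 and Foxf2 are printed because Erg and Foxc1 differed with the title tag in opposite directions and Foxf2, the neighbour of Foxc1, lay just outside the threshold. The table gave 3 windows for Erg, of which the one at its annotated start was used, and the window of Foxc1 was set on a start 13 bases inside the annotated one. They cover chr16:95586544-95586843 (minus strand) for Erg, chr13:31806396-31806695 (plus strand) for Foxc1 and chr13:31625566-31625865 (plus strand) for Foxf2. Each is written 5′ to 3′ along its gene, and capitals mark the ETS core GGAA or its reverse complement TTCC.
Erg: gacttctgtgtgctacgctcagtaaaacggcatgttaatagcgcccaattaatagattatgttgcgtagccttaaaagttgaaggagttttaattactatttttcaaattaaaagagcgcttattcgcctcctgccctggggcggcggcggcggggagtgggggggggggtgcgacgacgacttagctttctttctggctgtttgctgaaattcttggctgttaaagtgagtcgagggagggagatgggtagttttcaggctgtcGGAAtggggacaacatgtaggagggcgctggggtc
Foxc1: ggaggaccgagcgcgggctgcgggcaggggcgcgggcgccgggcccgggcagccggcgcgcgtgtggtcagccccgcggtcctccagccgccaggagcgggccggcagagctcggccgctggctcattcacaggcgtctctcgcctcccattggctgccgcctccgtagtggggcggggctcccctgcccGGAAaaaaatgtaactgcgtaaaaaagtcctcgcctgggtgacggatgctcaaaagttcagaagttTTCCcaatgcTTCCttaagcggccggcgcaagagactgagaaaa
Foxf2: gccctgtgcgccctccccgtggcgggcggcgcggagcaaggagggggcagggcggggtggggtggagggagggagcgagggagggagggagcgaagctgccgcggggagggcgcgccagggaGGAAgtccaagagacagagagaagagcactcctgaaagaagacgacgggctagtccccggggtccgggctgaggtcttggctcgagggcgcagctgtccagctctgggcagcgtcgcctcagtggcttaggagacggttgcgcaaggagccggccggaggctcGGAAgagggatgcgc
The Foxc1 and Foxf2 windows were rich in G and C, at 67.3% and 71.3% of bases, and that of Erg was at 50.3%. On both strands together the ETS core occurred 1 time in the window of Erg, 2 times in that of Foxf2 and 3 times in that of Foxc1. This is common, as 96.0% of 32851 promoter windows of the same length held at least 1 core, with a median of 3. The forkhead sequence GTAAACA, held by 3.65% of all windows, and the SOX sequence AACAAT, held by 10.7%, did not occur in the windows of Erg, Foxc1, Foxf2 or Tal1. A match or its lack describes these letters in these windows only.

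Levels were expressed as CPM, counts relative to the total of the library, computed from the column totals with the trimmed mean of M values (TMM) scaling of edgeR, and between genes as CPM per kilobase of annotated exon. Library totals ran from 1626534 to 49372356 counts. They went with sex, with a median of 5257350 counts in male and 21242100 in female libraries, and the share of 3 rRNA-like genes (Gm23935, Gm42418 and Gm26917) was 12.97 to 29.3% of counts in male libraries and 1.59 to 12.1% in female ones, without overlap. The sort was checked on 20 endothelial markers, each of which was detected, with a median summed level of 29878 CPM in male high libraries and 21584 CPM in male low ones. None of 10 astrocyte markers was at 0 over the libraries, and their summed level ran from 1656 to 21982 CPM, so that RNA of other cells was present beside that of EC. In bulk libraries, fewer cells of a type and less RNA per cell cannot be told apart.

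Per kilobase of exon, Sox18 had the highest level and Tal1 the lowest. Sox18 was at 168 ± 77.3 CPM per kb (SD, n = 43), above 99.5% of the 17644 protein-coding genes tested, and it exceeded the next gene, Foxf2, in 40 of 43 libraries. Foxf2 (77.9 ± 30.5 CPM per kb), Erg (70.4 ± 23.4) and Ets1 (65.2 ± 20.0) came next, and their order changed from library to library, Foxf2 being above Erg in 27 libraries and Erg above Ets1 in 23. Fli1 followed at 49.4 ± 17.4 CPM per kb. Foxq1 (38.8 ± 12.7), Foxc1 (38.6 ± 11.7) and Sox17 (36.8 ± 12.6) could not be ranked, as Foxq1 exceeded Foxc1 in 24 libraries and Foxc1 exceeded Sox17 in 24. Sox7 was at 25.7 ± 11.7 CPM per kb and above Tal1 in 42 of 43 libraries. Tal1 was at 6.59 ± 3.79 CPM per kb. Among all members the levels of Tal1, Sox18 and Sox7 varied most between libraries, with coefficients of variation of 57.6%, 45.97% and 45.7%, and those of Foxc1 and Ets1 least, with 30.3% and 30.6%. Tal1 had no count in 2 male high libraries, cortex of DBA/2J and hippocampus of WSB/EiJ, where a count of 0 allows up to 0.764 and 1.84 CPM, and the latter was the library of lowest depth. The plot of levels per length shows this order together with the spread.

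**Figure D1:**
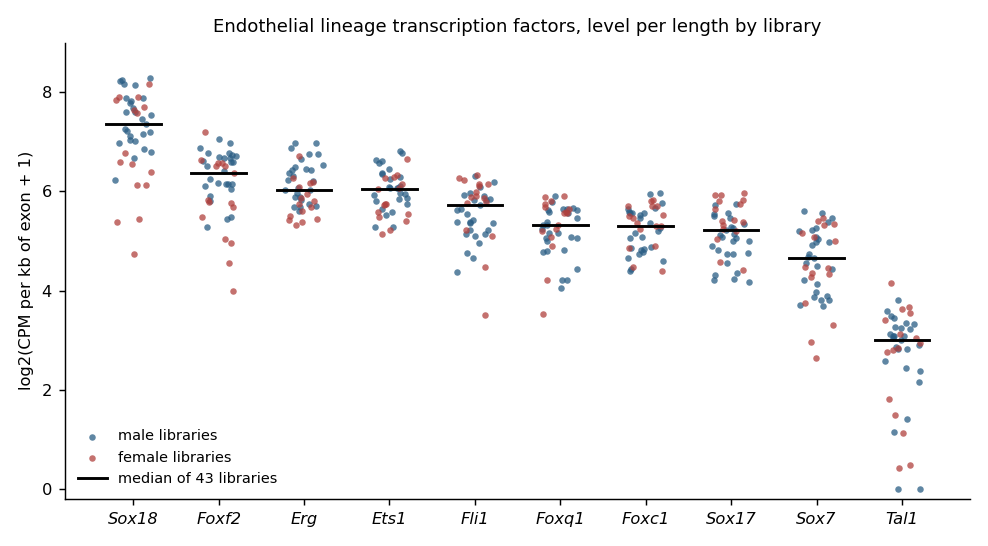
Level of each factor in the 43 libraries on a log2(CPM per kb of exon + 1) scale; points are libraries (blue male, red female) and black lines medians. Sox18 stood highest and Tal1 lowest, with 2 Tal1 libraries at 0, and the points of the 8 factors between them overlapped their neighbours'.

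In male mice, Sox18, Sox7 and Foxc1 rose and Erg fell in libraries titled high compared with those titled low. These 4 of 10 factors passed an adjusted p of 0.05, against 1.06% of the 27529 genes tested (0.294% higher and 0.77% lower in high). In all, 9 of the 10 had an unadjusted p under 0.05 (edgeR's quasi-likelihood test throughout, with Benjamini-Hochberg adjustment over all genes tested). The share of all genes under this unadjusted p was not counted, but 14 of the 20 endothelial markers were under it too. The median log2 fold change of the 10 factors was 0.46, against 0.04 over all genes tested.

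Sox18 ranged from 178 to 503 CPM with a median of 372 in the 14 high libraries, and from 119 to 312 CPM with a median of 225 in the 13 low ones. Of the high libraries 10 were above every low library, and no low library reached the median of the high ones. The log2 fold change was 0.77 ± 0.15 (SE), with an adjusted p of 0.00196 (edgeR). Sox7, which is lower in level, had a lowest value of 44.8, a median of 113 and a highest value of 157 CPM in high libraries, and of 39.3, 54.5 and 97.2 CPM in low ones. Of the 14 high libraries 11 lay above all low libraries, and the 3 others included both male high libraries of WSB/EiJ. This gave the largest fold change of the set, at 0.88 ± 0.19 on the log2 scale (adjusted p = 0.00748, edgeR). The third SoxF gene, Sox17, was at 92.7 to 250 CPM (median 177) in high and at 81.3 to 249 CPM (median 130) in low libraries. Its ranges overlapped almost fully, and its log2 fold change of 0.39 ± 0.17 did not pass (adjusted p = 0.478, edgeR).

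Among the forkhead factors, Foxc1 was at 161 to 359 CPM (median 271) in high and 117 to 269 CPM (median 159) in low libraries. Of the high libraries 8 exceeded every low one. The log2 fold change was 0.70 ± 0.14, with an adjusted p of 0.00357 (edgeR). Its neighbour Foxf2 lay just outside the threshold, with 140 to 314 CPM (median 240) in high and 89.5 to 255 CPM (median 165) in low libraries, a log2 fold change of 0.56 ± 0.15 and an adjusted p of 0.0502 (edgeR). It was the one factor that was higher in high in all 13 pairs of male libraries of the same strain and region. Foxq1 was at 101 to 286 CPM (median 227) in high and 75.1 to 238 CPM (median 151) in low libraries. There were 3 high libraries above every low one and 1 low library above the median of the high ones, and the log2 fold change of 0.52 ± 0.16 did not pass (adjusted p = 0.132, edgeR). The gene that overlaps Foxq1 on the other strand, A530084C06Rik, had a log2 fold change of 1.20 ± 0.69 (adjusted p = 0.651, edgeR).

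Of the ETS factors Erg alone passed, and it was lower in high. Erg was at 166 to 317 CPM with a median of 207 in high libraries and at 202 to 435 CPM with a median of 307 in low ones. Of the 14 high libraries 7 were below every low library, and 12 of the 13 low libraries were above the median of the high ones. Its log2 fold change was -0.60 ± 0.14, with an adjusted p of 0.00931 (edgeR). Ets1 was at 320 to 828 CPM (median 497) in high and 445 to 948 CPM (median 685) in low libraries, and its log2 fold change of -0.38 ± 0.13 did not pass (adjusted p = 0.234, edgeR). Fli1, the close relative of Erg, was at 69.3 to 273 CPM (median 188) in high and 84.7 to 235 CPM (median 127) in low libraries, with a log2 fold change of 0.39 ± 0.17 (adjusted p = 0.482, edgeR). Within a library, log2 Sox18 over Erg had a median of 0.77 in the high (0.025 to 1.54) and of -0.52 in the low libraries (-1.53 to 0.24), so that Sox18 exceeded Erg in CPM in every male high library. Tal1 was at 0 to 48.1 CPM (median 29.6) in high and 5.27 to 57.2 CPM (median 32.8) in low libraries, and its fold change did not pass (adjusted p = 0.879, edgeR).

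Pairing each high library with the low one of the same strain and region gave the same directions as the medians for 10 of 10 factors. Of 13 pairs, Sox7 and Foxq1 were higher in high in 12, Sox18, Foxc1 and Fli1 in 11 and Sox17 in 10, whereas Erg and Ets1 were lower in high in 11 and Tal1 in 8. The mean difference on the log2(CPM + 1) scale was 0.77 ± 0.59 (SD, n = 13 pairs) for Sox18, 0.81 ± 0.67 for Sox7, 0.71 ± 0.47 for Foxc1 and -0.63 ± 0.46 for Erg. The exceptions to Erg were the hippocampus of NOD/ShiLtJ, at 222 CPM in high and 202 in low, and the cortex of WSB/EiJ, at 317 and 301. The exceptions to Sox18 were the hippocampus of DBA/2J, at 266 CPM in high and 312 in low, and the hippocampus of WSB/EiJ, at 178 and 247. The pairs lie side by side in the plot of low and high male libraries.

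**Figure D2:**
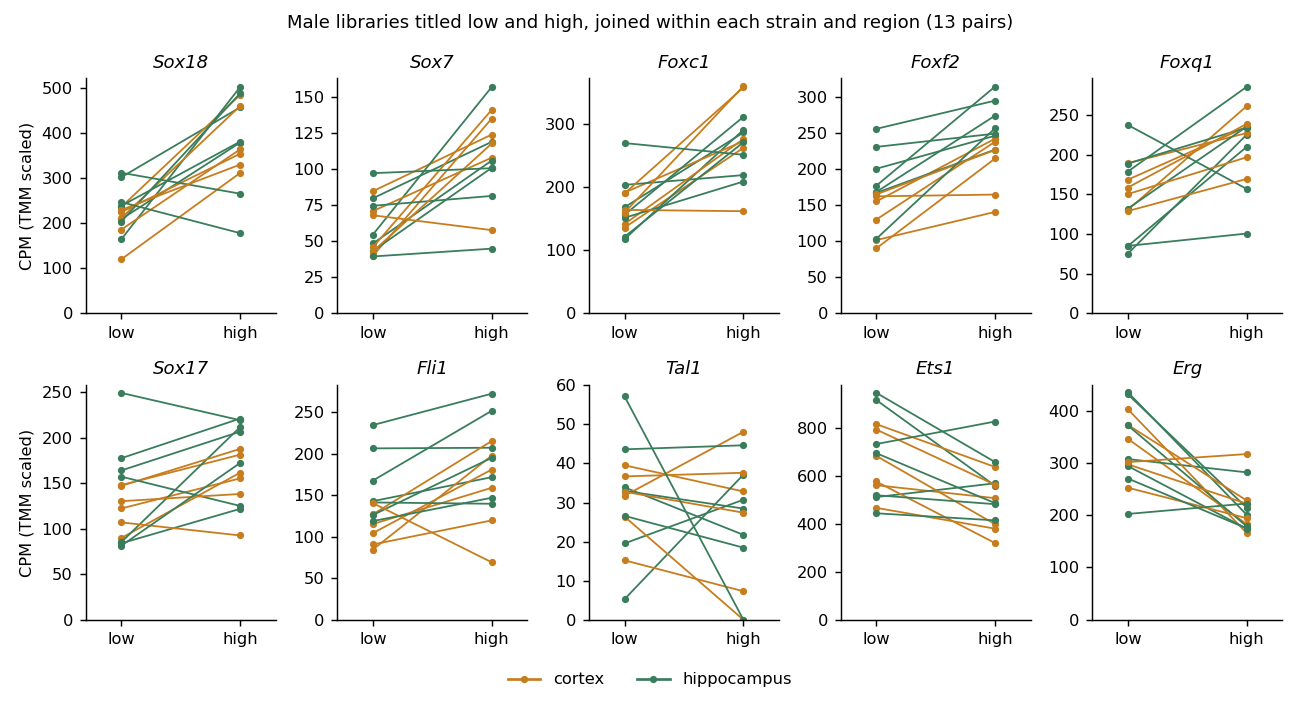
CPM of each factor in male libraries titled low and high, one panel per factor with its own axis from 0; each line joins the low and the high library of 1 strain and region (orange cortex, green hippocampus, 13 pairs). Lines rise in all 13 pairs for Foxf2 and in 12 for Sox7, and fall in 11 for Erg and Ets1.

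The calls did not hold under every model. With strain and region as covariates 6 factors passed, the 4 above with Foxf2 (adjusted p = 0.00332) and Ets1 (adjusted p = 0.0219; edgeR). Within the cortex (13 libraries) and within the hippocampus (14 libraries) none passed, with log2 fold changes of Sox18 of 0.88 and 0.67 and of Erg of -0.55 and -0.67 and adjusted p-values in edgeR of 0.0694 to 0.715 for the 4. Over all genes, 550 of 24452 passed with the covariates, but only 27 of 22392 in the cortex and 5 of 24028 in the hippocampus. Without the libraries of CAST/EiJ, Foxc1 and Sox18 alone passed, Erg being at an adjusted p of 0.0867 and Sox7 at 0.0682 (edgeR). Erg also missed the threshold without C57BL/6J (adjusted p = 0.0936) and Sox7 without A/J (adjusted p = 0.0526; edgeR). The calls over all genes fell in these fits as well, from 293 of 27529 with all strains. They were 124 of 26408 without CAST/EiJ, 148 of 26450 without C57BL/6J and 132 of 26490 without A/J.

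Markers of cell types moved with the same tag, with which 0.294% of all 27529 genes rose in high and 0.77% fell. Of 20 endothelial markers 7 rose in high and none fell, among them Cldn5, a tight junction protein of EC, with a log2 fold change of 0.96 ± 0.15 (adjusted p = 7.81e-05, edgeR). Of the astrocyte markers 3 of 10 fell, and their summed level ran from 1960 to 8215 CPM in high and from 3737 to 21982 CPM in low libraries. Of the others 1 of 6 neuron markers, 1 of 6 oligodendrocyte markers and 1 of 10 pericyte markers fell too, and 2 of 8 erythroid and platelet markers rose, whereas none of the fibroblast, smooth muscle, microglia, lymphatic, arterial or venous markers passed (edgeR). With the mean level of the endothelial list as a covariate no factor passed, and the log2 fold changes were 0.47 ± 0.16 for Sox18, 0.42 ± 0.20 for Sox7, 0.54 ± 0.15 for Foxc1, -0.57 ± 0.16 for Erg and -0.57 ± 0.15 for Ets1 (adjusted p from 0.0715 to 0.558, edgeR). With the astrocyte list as a covariate none passed either, Erg, Foxc1 and Sox7 having log2 fold changes of -0.66, 0.75 and 0.995 and Sox18 one of 0.43 (adjusted p from 0.0601 to 0.59 for the 4, edgeR). With the pericyte list as a covariate 5 passed, and with the total counts 4. Over all genes, 103 of 22477 passed with the endothelial list and 23 of 24078 with the astrocyte list. The pericyte list left 292 calls of 23519 genes and the total counts 297 of 21824. Depth was alike, with a median of 5678920 counts in male high and 4604870 in male low libraries. Beyond these covariates, the part of cell composition in the tag difference was not tested.

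The tag was also read in related genes. Over all 27529 genes tested, 0.294% rose in high and 0.77% fell, with a median log2 fold change of 0.04 (edgeR). Of 30 other endothelial transcription factors 3 rose in male high libraries and none fell, with a median log2 fold change of 0.18. They were Foxo1, a forkhead factor of EC quiescence (0.71 ± 0.15, adjusted p = 0.00482), Gata2, a partner of Tal1 (0.58 ± 0.15, adjusted p = 0.031), and Lef1, a nuclear effector of Wnt signalling (0.48 ± 0.12, adjusted p = 0.0293; edgeR). Of 30 genes known as targets of ETS, SOX or FOX factors, 3 rose and none fell, with a median of 0.28. These were Cldn5 and the adhesion molecules Esam (0.62 ± 0.14, adjusted p = 0.00842) and Icam2 (1.305 ± 0.23, adjusted p = 0.000735; edgeR). Cldn5 and Esam stand in the endothelial marker list as well.

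Among the 7 strains, Ets1 was the factor that differed, and it was high in NOD/ShiLtJ and CAST/EiJ and low in WSB/EiJ. It was the 1 of 10 factors that passed the test over strains (adjusted p = 0.00418, edgeR), against 2.68% of 29120 genes. Ets1 was at 735 ± 110 CPM (SD, n = 6) in NOD/ShiLtJ and at 732 ± 124.5 CPM (n = 6) in CAST/EiJ. It was lower in A/J at 548 ± 36.4 CPM (n = 5), in C57BL/6J at 545 ± 124 CPM (n = 6), in 129S1/SvImJ at 487 ± 182 CPM (n = 9) and in DBA/2J at 454 ± 106 CPM (n = 5). The lowest level was that of WSB/EiJ, at 385 ± 72.1 CPM (n = 6).

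The libraries of NOD/ShiLtJ ran from 564 to 841 CPM and those of CAST/EiJ from 638 to 948 CPM, all above the 291 to 468 CPM of WSB/EiJ. In this order, 5 of the 6 neighbouring pairs of strains overlapped in their libraries, and only CAST/EiJ and A/J, whose highest library was at 590 CPM, were apart. Within male libraries the means kept WSB/EiJ lowest, at 427 ± 37.7 CPM (n = 4), and CAST/EiJ and NOD/ShiLtJ highest, at 765 ± 146 and 730 ± 118 CPM (n = 4 each), but 129S1/SvImJ moved up to 600 ± 300 CPM (n = 3). The male low hippocampus library of that strain reached 918 CPM, while its male high cortex library was at 322.

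Against the mean of the other 6 strains, Ets1 was lower in WSB/EiJ with a log2 fold change of -0.58 and an adjusted p of 0.0355 (edgeR), the 1 of 70 strain and factor pairs that passed, beside 0.912% of all gene and strain pairs. Ets1 in CAST/EiJ (0.51, adjusted p = 0.071) and in NOD/ShiLtJ (0.51, adjusted p = 0.187) did not pass, nor did Sox7 in WSB/EiJ (-0.89, adjusted p = 0.116) or Sox18 in 129S1/SvImJ (-0.74, adjusted p = 0.087; edgeR). Of the wild-derived strains, CAST/EiJ thus lay near the top of the order for Ets1 and WSB/EiJ at its end. The test over strains rested on few of them, as the adjusted p of Ets1 was 0.0947 without CAST/EiJ, 0.0586 without NOD/ShiLtJ and 0.063 without WSB/EiJ, and it was 0.15 in male libraries alone (edgeR). Over all genes, these fits called 332, 590, 668 and 474 genes in the same order, against 781 with all libraries. WSB/EiJ had the lowest depth, with 1626534 to 5331064 counts a library. Cell type markers differed over the strains as well, with 7 of 20 endothelial, 5 of 10 pericyte, 3 of 10 astrocyte and 2 of 10 smooth muscle markers past the threshold, beside 2.68% of 29120 genes (edgeR). The mean log2(CPM + 1) of the endothelial markers was lowest in WSB/EiJ, at 9.09 ± 0.29 (SD, n = 6) against strain means of 9.47 to 9.73 in the others, and that of the pericyte markers was highest there, at 7.43 ± 0.48 against 6.31 to 7.26. The summed endothelial level ran from 19142 to 31515 CPM in WSB/EiJ and from 18681 to 40990 CPM elsewhere, and the summed pericyte level from 4793 to 9551 CPM and from 1953 to 8375 CPM. No marker of either list was at 0, and their part in the strain differences was not tested.

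**Figure D3:**
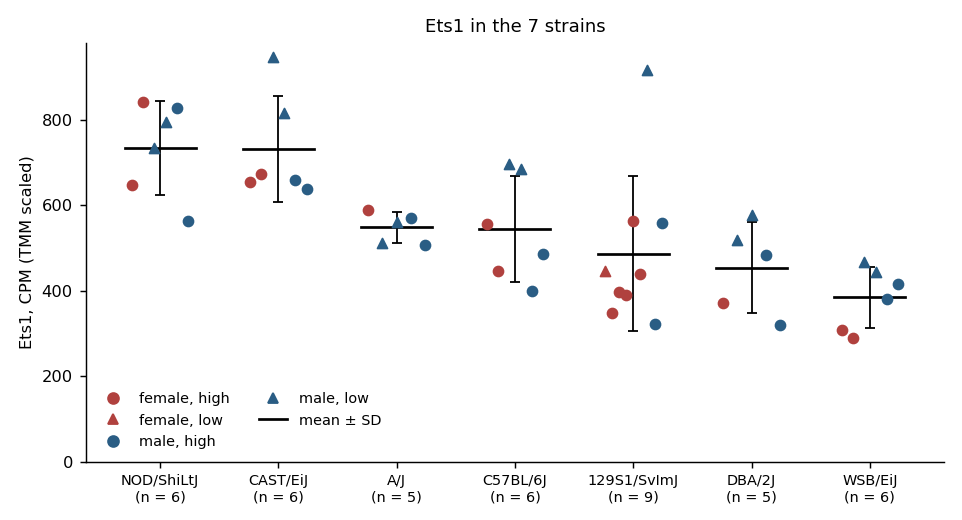
CPM of Ets1 in each library by strain, ordered by the strain mean (circles high, triangles low; red female, blue male), with the mean ± SD in black. All libraries of NOD/ShiLtJ and CAST/EiJ lay above the 6 of WSB/EiJ, and the male low library of 129S1/SvImJ at 918 CPM stood alone.

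For the other 9 factors all 6 neighbouring pairs of strains overlapped, and the adjusted p over strains was 0.264 for Foxf2 and from 0.578 to 0.986 for the rest (edgeR). Erg was the most even, from 219 ± 24.9 CPM in NOD/ShiLtJ (n = 6) to 263 ± 121 CPM in C57BL/6J (n = 6), a ratio of 1.20 between the extreme means. Fli1 went from 116 ± 54.6 CPM in WSB/EiJ (n = 6) to 231 ± 55.8 CPM in C57BL/6J (n = 6), and Foxf2 from 127 ± 73.0 to 243 ± 75.2 CPM between the same strains. Sox7 was lowest in WSB/EiJ too, at 49.2 ± 17.0 CPM, and highest in A/J at 112 ± 41.5 CPM (n = 5).

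WSB/EiJ was the lowest strain for 6 of the 10 factors, Fli1, Ets1, Foxf2, Foxq1, Sox7 and Tal1, and its rank for Sox18 was 3. It was also the strain with the lowest endothelial and the highest pericyte marker level given above. It had the fewest genes detected, a mean of 11568 a library against 12489 to 15358 in the other strains. With CAST/EiJ left out, the median log2 fold change of wild-derived against long-inbred libraries over all genes was -1.305. That median includes genes that reached 0.5 CPM in 1 library only, and it was not computed with a stricter filter. How often genes in general were lowest in WSB/EiJ was not counted, so that 6 of 10 cannot be set against a usual share. Foxq1 was at 143 ± 77.1 CPM there and at 226 ± 58.4 CPM in C57BL/6J, and Tal1 at 20.1 ± 23.1 CPM there and at 41.2 ± 6.41 CPM in CAST/EiJ (n = 6). Foxc1 was highest in NOD/ShiLtJ (269 ± 69.2 CPM, n = 6) and lowest in 129S1/SvImJ (190 ± 55.9 CPM, n = 9). Sox18 was lowest in 129S1/SvImJ, at 177 ± 140 CPM (n = 9), and Sox17 was highest in the same strain, at 215 ± 73.1 CPM. The highest mean of Sox18 was that of CAST/EiJ, at 335 ± 121 CPM (n = 6), and the lowest of Sox17 that of A/J, at 137 ± 43.2 CPM (n = 5). These 2 SoxF genes were thus ordered differently over the strains. In 129S1/SvImJ, 6 of 9 libraries were female, and in male libraries alone the fold change of Sox18 in this strain reversed, to 0.27 on the log2 scale (adjusted p = 0.902, edgeR).

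Of the 30 other endothelial transcription factors 2 differed between the strains, where 2.68% of 29120 genes did. Ets2, a further ETS factor, was at 467 ± 123 CPM (n = 6) in CAST/EiJ and at 117 ± 48.7 CPM (n = 9) in 129S1/SvImJ (adjusted p = 8.67e-08, edgeR). Its libraries in CAST/EiJ ran from 285 to 557 CPM and those of 129S1/SvImJ from 46.8 to 192 CPM, without overlap. Ppard, a nuclear receptor, was at 180 ± 79.5 CPM (n = 6) in WSB/EiJ and at 68.2 ± 9.79 CPM (n = 5) in DBA/2J (adjusted p = 0.0264, edgeR). Of the 30 target genes 12 differed, the 4 with the smallest p being Vwf, Dll4, Clec14a and Cd34 (adjusted p from 3.96e-07 to 0.00104, edgeR). The 12 include Cldn5, Kdr, Tie1 and Egfl7, which are also endothelial markers, a list of which 7 of 20 differed. Cd34, a surface sialomucin of EC, was lowest in WSB/EiJ at 191 ± 49.7 CPM (n = 6), the strain with the lowest Ets1, whereas Dll4, a Notch ligand, was highest there at 219 ± 110 CPM.

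None of the 10 factors passed between the sexes, against 2.85% of 29120 genes, although 4 had an unadjusted p under 0.05 (edgeR). How many of all genes were under this unadjusted p was not counted. Erg came closest, with 135 to 361 CPM (median 187) in the 16 female and 166 to 435 CPM (median 257) in the 27 male libraries, a log2 fold change of -0.44 ± 0.14 in females against males and an adjusted p of 0.0801 (edgeR). Sox17 went the other way, with 96.5 to 293 CPM (median 198) in female and 81.3 to 250 CPM (median 155) in male libraries, and a log2 fold change of 0.43 ± 0.15 (adjusted p = 0.116, edgeR). The ranges of both genes overlapped over most of their width. Sox18 (-0.43 ± 0.20, adjusted p = 0.33) and Foxf2 (-0.37 ± 0.18, adjusted p = 0.366) were the others with a small unadjusted p (edgeR).

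Erg passed under other settings, with adjusted p-values of 0.00219 by DESeq2, 0.0181 with the size factors of DESeq2 in edgeR and 0.036 with all libraries thinned to the smallest total. The size factors shifted the median log2 fold change of all genes between the sexes from -0.12 to -0.24. In libraries titled high alone, where 15 female libraries stood against 14 male ones, the log2 fold change of Erg was -0.21 (adjusted p = 0.482) and that of Sox18 -0.70 (adjusted p = 0.0889; edgeR). Sex went with the depth and with the rRNA-like share, so that their effects cannot be told apart. With the rRNA-like share as a covariate Foxf2 and Sox18 reversed, to 0.18 and 0.44 on the log2 scale (adjusted p = 0.946 and 0.715, edgeR).

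No factor differed between hippocampus and cortex, where 0.0755% of 29120 genes did. Of the set 2 had an unadjusted p under 0.05 in edgeR and 2 in DESeq2, which called none either. Genes under this unadjusted p were not counted outside the set. Foxf2 was at 103 to 346 CPM (median 219) in the 22 hippocampus and 35.0 to 242 CPM (median 162) in the 21 cortex libraries, with a log2 fold change of 0.43 ± 0.18, and Fli1 was at 119 to 273 CPM (median 199) and 36.3 to 276 CPM (median 127), with 0.37 ± 0.16. Both lay higher in the hippocampus by the median, within wide overlap, and both had an adjusted p of 0.669 (edgeR). The fold changes of the other 8 were between -0.11 and 0.19 on the log2 scale.

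Wild-derived and long-inbred strains did not differ in any of the 10 factors either, with 0 at an unadjusted p under 0.05 in edgeR and 1 in DESeq2, which called none, and with 0.749% of 29120 genes called in edgeR. The median log2 fold change of the 10 factors was -0.08, against -0.38 over all genes tested. The latter depended on the filter, and was -0.076 over the 17282 genes with 0.5 CPM in at least 5 libraries. The largest differences were those of Fli1, with a median of 144 CPM in 12 wild-derived and 196 CPM in 31 long-inbred libraries (log2 fold change -0.33 ± 0.19), and of Sox18, with 320 and 238 CPM (0.33 ± 0.22), both at an adjusted p of 0.754 (edgeR). Ets1, in which CAST/EiJ and WSB/EiJ were far apart, had medians of 553 and 556 CPM and a log2 fold change of 0.02 ± 0.15. Of the 30 target genes 5, Vwf, Angpt2, Dll4, Clec14a and Notch1, were higher in wild-derived than in long-inbred libraries (edgeR). The study had already reported Vwf and Angpt2 as higher in wild-derived mice from these data. As the list was chosen with earlier results known, these calls are not independent of them. For Vwf and Dll4, WSB/EiJ and CAST/EiJ had the highest strain means. Clec14a was highest in CAST/EiJ, at 318 ± 135 CPM (SD, n = 6). In WSB/EiJ it was at 112 ± 50.3 CPM (n = 6), below C57BL/6J at 133 ± 39.7 CPM (n = 6). None of the 30 other transcription factors passed. The fold changes of the set in all 4 comparisons are drawn together with their errors.

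**Figure D4:**
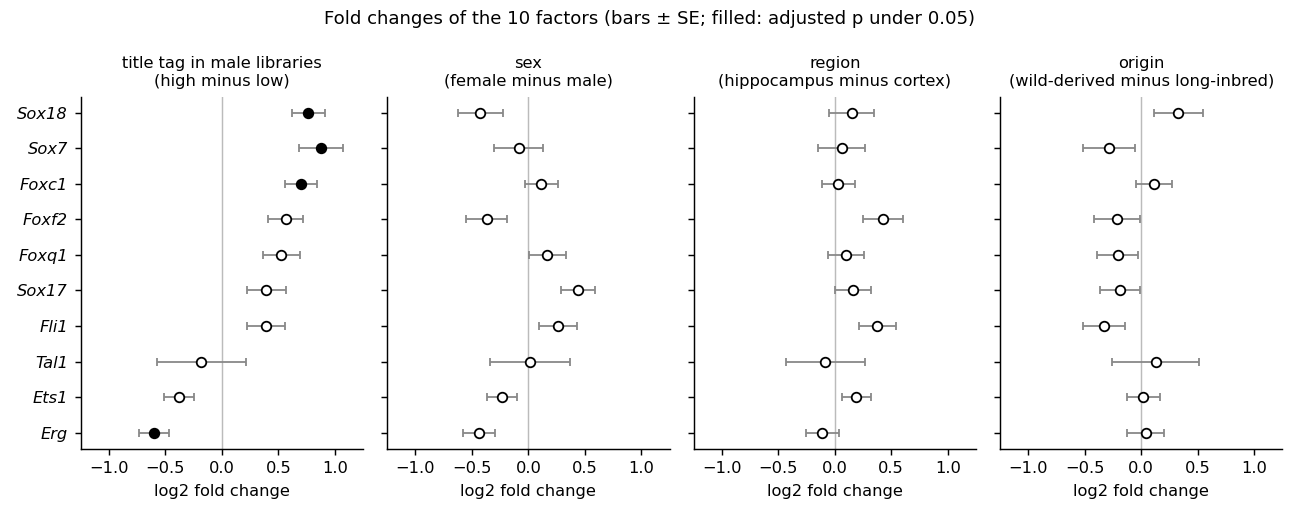
Log2 fold change ± SE of each factor for title tag in male libraries, sex, region and strain origin; filled points passed an adjusted p of 0.05 in edgeR. Only the first panel has filled points, Sox18, Sox7 and Foxc1 to the right of 0 and Erg to the left.

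Interaction terms gave no call among the 10 factors. None passed for origin by region (0% of 29120 genes called), sex by region (0.00343%) or sex by origin (0.0206%), nor for the tag by region (0% of 27529 genes) or by origin (0.00727%) in male libraries (edgeR). DESeq2 called none either, and with both tools 1 term had an unadjusted p under 0.05. This was Sox18 for sex by origin, with a log2 difference of 1.12 ± 0.41 and an adjusted p of 0.934 (edgeR). Differences in the effects above between regions, sexes or origins were therefore not shown.

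Across the 43 libraries, the levels of 24 of the 45 pairs of factors varied together on the log2(CPM + 1) scale, 20 in the same direction and 4 in opposite directions (two-sided permutation test of Pearson's r with 100000 resamples, Benjamini-Hochberg adjusted over 45 pairs). All 4 opposed pairs held Erg. Pairs of other genes were not counted, so that 24 of 45 cannot be set against a usual share. The permutations treated the libraries as exchangeable, although they share strains, regions, sexes and title tags. The p-values may therefore in part restate differences between these groups, such as those with the tag. The strongest pair was Fli1 and Foxf2, with r = 0.68 and Spearman's rho = 0.55 (adjusted p = 3e-04 and 0.00116, permutation test). It was followed by Foxf2 and Sox7 (r = 0.65, rho = 0.59) and Foxc1 and Sox7 (r = 0.62, rho = 0.65), with adjusted p-values of 3e-04 for each r and of 0.00105 and 0.00045 for rho (permutation test). Without the 2 libraries farthest from the median of the first gene these r were 0.57, 0.69 and 0.59. They held within each sex, at 0.72, 0.52 and 0.71 in male and 0.85, 0.75 and 0.60 in female libraries.

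At the other end stood Erg and Foxc1 (r = -0.55, rho = -0.54), Erg and Sox17 (r = -0.53, rho = -0.56) and Erg and Fli1 (r = -0.44, rho = -0.50), with adjusted p-values for r of 0.00101, 0.00171 and 0.0086 and for rho of 0.00138, 0.00116 and 0.00283 (permutation test). Without the 2 farthest libraries they were -0.57, -0.67 and -0.53. Within the sexes they were weaker in part, at -0.64, -0.28 and -0.34 in male and -0.41, -0.67 and -0.54 in female libraries. Of these 6 values the adjusted p was under 0.05 for Erg and Foxc1 in male libraries (adjusted p = 0.00235) and for Erg and Sox17 in female ones (adjusted p = 0.0249; permutation test). Neighbours on the chromosome were not always alike, as r was 0.11 for Fli1 and Ets1 but 0.49 for Foxf2 and Foxq1, 0.44 for Foxf2 and Foxc1 and 0.36 for Foxq1 and Foxc1. Erg was positively related to Ets1 alone of the other factors past the threshold (r = 0.42, adjusted p = 0.0115, permutation test). Without the 2 farthest libraries this r was 0.34. It passed in neither sex, at 0.40 in male (adjusted p = 0.0715) and 0.26 in female libraries (adjusted p = 0.417, permutation test).

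**Figure D5:**
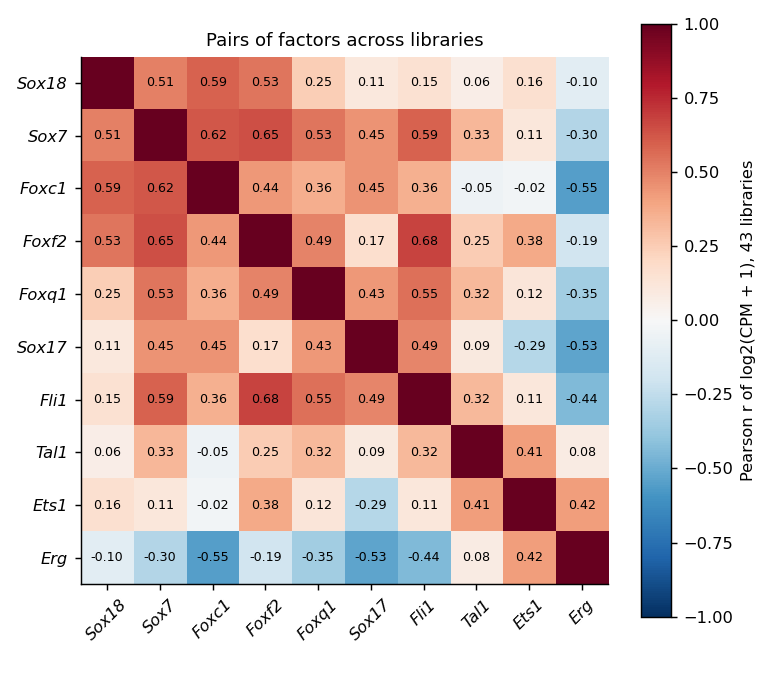
Pearson r of log2(CPM + 1) between the factors over the 43 libraries, from blue (negative) to red (positive), with r printed in each cell. The row of Erg is most blue against Foxc1, Sox17, Fli1 and Foxq1 and red against Ets1, and Sox18, Sox7, Foxc1 and Foxf2 form a red block.

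Over 8679 genes with a mean of at least 10 CPM, the genes most like each factor, by Pearson r over the 43 libraries after the mean of each sex was subtracted, were mostly not other members of the set. The exception was the pair of Fli1 and Foxf2, each of which had the other as its nearest gene (r = 0.80). Erg was most like Map4, a microtubule-associated protein (r = 0.79), and Amotl1, a junctional scaffold (r = 0.74), while its nearest member, Ets1, had a rank of 539. Ets1 was most like Wwtr1 (0.74), a transcriptional effector of the Hippo pathway, and Ccdc85c (0.72). Sox7 was nearest to Cd93 (0.79) and Cldn5 (0.77), and Sox18 to Tmem109 (0.78) and Eng (0.76), so that 3 of these 4 were among the endothelial markers. Foxf2 had Cd34 (0.73) and Fli1 had Glmp (0.73) as its second gene.

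Foxc1 was nearest to Ephx1 (0.77) and to the rRNA-like gene Gm26917 (0.76), Foxq1 to Mtss1 (0.77) and Ddx58 (0.68), and Sox17 to Mtfr1l (0.66) and Abcc6 (0.66). Tal1 had Ublcp1 (0.81) and Vmac (0.74), both of a low mean level near 15 CPM. These r were the highest of many genes in libraries that share strain, tag and depth, and they are given as a description.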

How the data were processed

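RNA was sequenced from sorted brain endothelial cells after rRNA depletion with a stranded total RNA kit. The authors aligned reads with HISAT2 2.1.0 to mm10 and counted them per gene with featureCounts of Subread 1.4.4, per their methods and processing notes, and deposited raw counts of 54532 genes in 43 libraries. The strand setting is not given in the sources used here. Library totals of 1626534 to 49372356 counts set the precision.

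Groups were taken from the labels. Counts were scaled with TMM and tested with the quasi-likelihood test of edgeR 4.0.16 in R 4.3.3 (a gene was kept if 1 library or more reached 0.5 CPM, and the threshold was a Benjamini-Hochberg adjusted p of 0.05 over all genes tested). All 10 factors passed the filter. The fits were tested on simulated data. DESeq2 1.42.0, other filters, scalings, covariates and subsets were alternatives, and the list levels, the total as covariates and the tag interactions were added after seeing the data. Named genes were the 10 factors, list genes past the threshold, and the 2 genes most like each factor. The members and lists were chosen with earlier results of these data known.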

Additional observations from a re-analysis of the deposited data

Results flagged for a closer look

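In groups of 5 to 9 libraries of a strain, 9 of 70 groups had a library far from the others by Dixon's criterion, which chance gives in about 1 in 20 groups, and each was the lowest of its strain. Fli1 was at 84.7 CPM in the male cortex low library of A/J (others 189 to 207) and at 127 in that of C57BL/6J (others 216 to 276). Foxf2 was at 89.5 CPM in the male cortex low library of A/J (others 212 to 295) and at 165 in that of NOD/ShiLtJ (others 223 to 249). Sox7 was at 42.8 CPM in the male cortex low library of NOD/ShiLtJ (others 97.2 to 118). Foxq1 was at 84.9 CPM in the female cortex high library 2 of 129S1/SvImJ (others 157 to 286) and at 84.7 in the male hippocampus low library of CAST/EiJ (others 169 to 239). Tal1 was at 5.27 CPM in the male hippocampus low library of A/J (others 32.8 to 46.8) and at 0 in the male cortex high library of DBA/2J (others 18.5 to 29.5). Of the 9 values, 7 lay in libraries titled low, where the male cortex low libraries of A/J and of NOD/ShiLtJ gave 2 values each, and causes were not tested.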

How the results depend on the processing

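For the tag, 4 calls became 7 by DESeq2 and 7 with the default deviances of edgeR, 0 in the cortex, 0 in the hippocampus, 0 with the astrocyte list and 0 with the endothelial list as a covariate, and 2 to 4 when each strain was left out. Over all genes, DESeq2 called 651 of 19114, the default deviances 8327 of 27529 and the fits without 1 strain 124 to 407 genes. The fits in the cortex, in the hippocampus, with the astrocyte list and with the endothelial list called only 27, 5, 23 and 103 genes. Over strains, 1 call became 3 with the default deviances, 0 in male libraries, 0 in the cortex, 0 in the hippocampus and 0 to 1 when each strain was left out. Here the default deviances called a large part of all genes, 13526 of 29120. Male libraries gave 474 calls of 27529 genes, the cortex 186 of 24136 and the hippocampus 184 of 25483. The fits without 1 strain gave 332 to 789. Between the sexes, 0 calls became 1 by DESeq2, 1 with its size factors, 1 with the filter of 5 libraries, 2 with the default deviances and 2 after thinning. In the same order, these settings called 1015 of 18705, 585 of 29120, 1091 of 17282, 10473 of 29120 and 491 of 29435 genes. Of strain and factor pairs, 1 call became 2 with sex and region as covariates, 2 by DESeq2 and 0 in male libraries. Of 45 pairs of factors, 24 were correlated by r over all libraries, 19 in male and 13 in female ones, and by rho 22, 19 and 3. The cause of these changes was not tested, but the subsets hold fewer libraries. Among fold changes with an unadjusted p under 0.05, those that reversed were female against male with the rRNA-like share as a covariate (Foxf2 0.18, Sox18 0.44), Sox18 between the sexes without 129S1/SvImJ (0.041, with -0.67 to 0.041 when each strain was left out), and 129S1/SvImJ against the other strains in male libraries (Foxf2 0.24, Sox18 0.27). Smaller fold changes also changed sign, such as Ets1 between the sexes (up to 0.50) and by origin (down to -0.52), none past the threshold. Region and origin gave 0 calls in every alternative run. Libraries were matched by strain and region, as in the 13 tag pairs and the fits with these as covariates. By mouse, no paired analysis was possible because no label links the libraries of a mouse. Depth limits Tal1 most, with 0 counts in 2 libraries.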
